A study of Mus musculus with 6 samples.

Results

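Leukotriene and prostaglandin synthesis was followed through 10 genes chosen by name: Alox5, Alox5ap, Lta4h, Ltc4s, Ltb4r1, Alox15, Ptgs1, Ptgs2, Ptges and Hpgds. All 10 were found among the 43432 genes of the deposited table, and 9 of them passed a filter on low values and were tested among 9923 genes. RNA was sequenced in bulk from splenic CD11b+ cells of 6 Rag1-KO C57BL/6J mice, which make no mature B or T cells of their own, at day 8 after cell transfer. All 6 mice were given unmanipulated 2D2 CD4+ T cells, which carry a T cell receptor for myelin oligodendrocyte glycoprotein (MOG), and MOG-loaded B cells grown in the iGB culture system. In the WT iGB6 group (n = 3) the B cells were wild type and had been transduced with a pMSCV-IRES2-eGFP retroviral construct holding Il6. In the IgHMOG iGBGFP group (n = 3) the B cells were IgHMOG and had received an empty pMSCV vector. B cell genotype and vector insert changed together, so their effects cannot be told apart, and no mouse without transferred cells was part of these groups. Each group held 1 female, replicate 1, and 2 males, replicates 2 and 3 (their ages are not given).

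Eicosanoids are short-lived signalling lipids made from arachidonic acid that phospholipases free from membranes. In the leukotriene branch, 5-lipoxygenase (Alox5) and its membrane helper FLAP (Alox5ap) make the unstable intermediate leukotriene A4, which Lta4h turns into the neutrophil attractant leukotriene B4 or Ltc4s joins to glutathione to make the cysteinyl leukotrienes. In the prostaglandin branch, the cyclooxygenases COX-1 (Ptgs1, in most cells a steadily expressed form) and COX-2 (Ptgs2, a rapidly inducible form) make prostaglandin H2, which Ptges turns into prostaglandin E2 and Hpgds into prostaglandin D2. Neutrophils are rich in the enzymes of leukotriene B4, while cysteinyl leukotrienes and prostaglandin D2 are typical of mast cells, basophils and eosinophils.

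Promoter sequences are shown for the 2 cyclooxygenase genes, which moved in opposite directions, and for Lta4h, the leukotriene enzyme that moved most among those tested. They are the 250 bases before the annotated start, 5′ to 3′ on the gene's strand, from RefSeq (GRCm38.p6), which gave a window for 8 of the 10 members. The windows are chr2:36230176-36230425 for Ptgs1, chr1:150099781-150100030 for Ptgs2 and chr10:93453146-93453395 for Lta4h, all on the plus strand. Capitals mark matches to the searched motifs on either strand.
Ptgs1: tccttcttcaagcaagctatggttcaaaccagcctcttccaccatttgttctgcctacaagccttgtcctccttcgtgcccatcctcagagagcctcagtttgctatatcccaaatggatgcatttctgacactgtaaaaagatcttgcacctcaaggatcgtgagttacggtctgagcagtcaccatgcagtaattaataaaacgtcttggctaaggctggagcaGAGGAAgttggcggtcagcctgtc
Ptgs2: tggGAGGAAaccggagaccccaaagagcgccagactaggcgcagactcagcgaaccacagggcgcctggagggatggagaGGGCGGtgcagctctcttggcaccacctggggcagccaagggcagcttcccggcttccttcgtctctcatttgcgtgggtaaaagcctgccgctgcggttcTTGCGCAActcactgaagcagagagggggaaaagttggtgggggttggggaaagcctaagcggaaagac
Lta4h: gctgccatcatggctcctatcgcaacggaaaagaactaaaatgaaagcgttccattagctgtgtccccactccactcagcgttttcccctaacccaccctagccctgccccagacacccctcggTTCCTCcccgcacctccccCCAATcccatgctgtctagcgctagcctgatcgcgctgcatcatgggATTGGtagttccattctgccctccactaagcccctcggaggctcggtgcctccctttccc
The first 30 bases after the annotated start of Ptgs2 follow its window, with 2 overlapping matches in capitals. Where transcription starts in these cells was not measured.
Ptgs2 after the start: agagtcaccactaCGTCACGTGgagtccgc

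Over the whole window of 300 bases (250 before and 50 after the start), the 6-base core of the myeloid factor PU.1, GAGGAA, was matched in all 8 member windows, against 28.3% of the 32851 windows of all genes and 27.6% of the 9942 windows of tested genes. The Ptgs1 window held that core 24 bases before the start and no other motif of those searched. The Ptgs2 window held it 247 bases before the start, with a GC box (GGGCGG) at 170 bases before and a C/EBP motif (TTGCNNAA) at 69 bases before. After the start, Ptgs2 had the reverse of a CRE core (TGACG) from base 14 and an E-box (CACGTG) from base 17, and these 2 matches overlap. The E-box was in 7.15% of all windows (10.2% of those of tested genes) and the CRE core in 20.8% (32.1%), and each was in 1 member window, that of Ptgs2. The C/EBP motif was in 2 member windows, Ptgs2 and Hpgds, against 10.8% of all windows (8.59% of tested genes). The GC box was in 4 of the 8 member windows, against 35.7% of all windows and 61.6% of those of tested genes. Lta4h alone held a CCAAT box (37.4% of all windows), 107 bases before the start and again, reversed, 60 bases before. None of the 8 windows held a TATA box (TATAAA, 13.6% of all), an AP-1 motif (TGANTCA, 7.81%) or the NF-kappa B motif searched (1.20%). These are matches of letters in a window, and no binding was measured.

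The libraries held 5196339 to 7564254 reads, so that 3 reads, the limit that a count of 0 allows for counting error alone, were 2.37 to 3.56 normalized counts. As a check of the sort, Itgam, the gene of CD11b, was at 6451 to 12352 normalized counts in the 6 libraries. Cd3e of T cells was at 0 in all 3 WT iGB6 libraries and at 1 to 4 reads in the others. Il6 had 9.21, 17.2 and 6.00 normalized counts in IgHMOG iGBGFP and 3.56, 2.37 and 3.37 (3 reads each) in WT iGB6. It fell under the filter and was not tested, and these cells are not those that carried the vector. IgHMOG iGBGFP replicate 1 stood apart from its group: its mean correlation over the tested genes was 0.947 with its own group and 0.956 with the other. WT iGB6 replicate 2 correlated at 0.959 with its own group and 0.953 with IgHMOG iGBGFP. In bulk RNA, fewer cells of a type and less RNA per cell cannot be told apart.

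Of the 9 members tested, 4 changed between the groups: Lta4h and Ptgs1 were higher in WT iGB6 mice, and Ptgs2 and Alox15 were lower. These 4 calls are 44.4% of the tested members, against 6.12% of all genes tested by the same rule (limma, adjusted p under 0.05), and for single directions 2.75% of all genes were called higher and 3.37% lower. The same 4 genes were the tested members whose 2 groups did not overlap, again 44.4%, against 23.6% of all genes tested. The members were chosen with earlier results of these data known, so these shares describe them and are no independent evidence. The median log2 fold change (WT iGB6 minus IgHMOG iGBGFP) was 0.51 over the 9 members and 0.02 over all genes. Log2 fold changes here are differences of log2(normalized count + 1) from a model with group and sex, which understate the change of low genes. With edgeR the same number of members, 4, was called (6.11% of all genes), with DESeq2 3 (9.58%), without the filter 4 (4.76%) and by the adjusted p of the authors' deposited table it was 3 (8.18%). Leaving out IgHMOG iGBGFP replicate 2 or 3 left 0 members called, in fits that called 0.0403% and 0.262% of all genes. Leaving out replicate 1 of IgHMOG iGBGFP or of WT iGB6 left 2 (1.29% and 1.36% of all genes), and leaving out WT iGB6 replicate 2 gave 5 (10.9%). With the sex term, the group difference in a fit without replicate 1 of either group rests on the males alone. Without the sex term, 0 members were called, in a fit that called 10 of the 9923 genes tested.

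**Figure D1:**
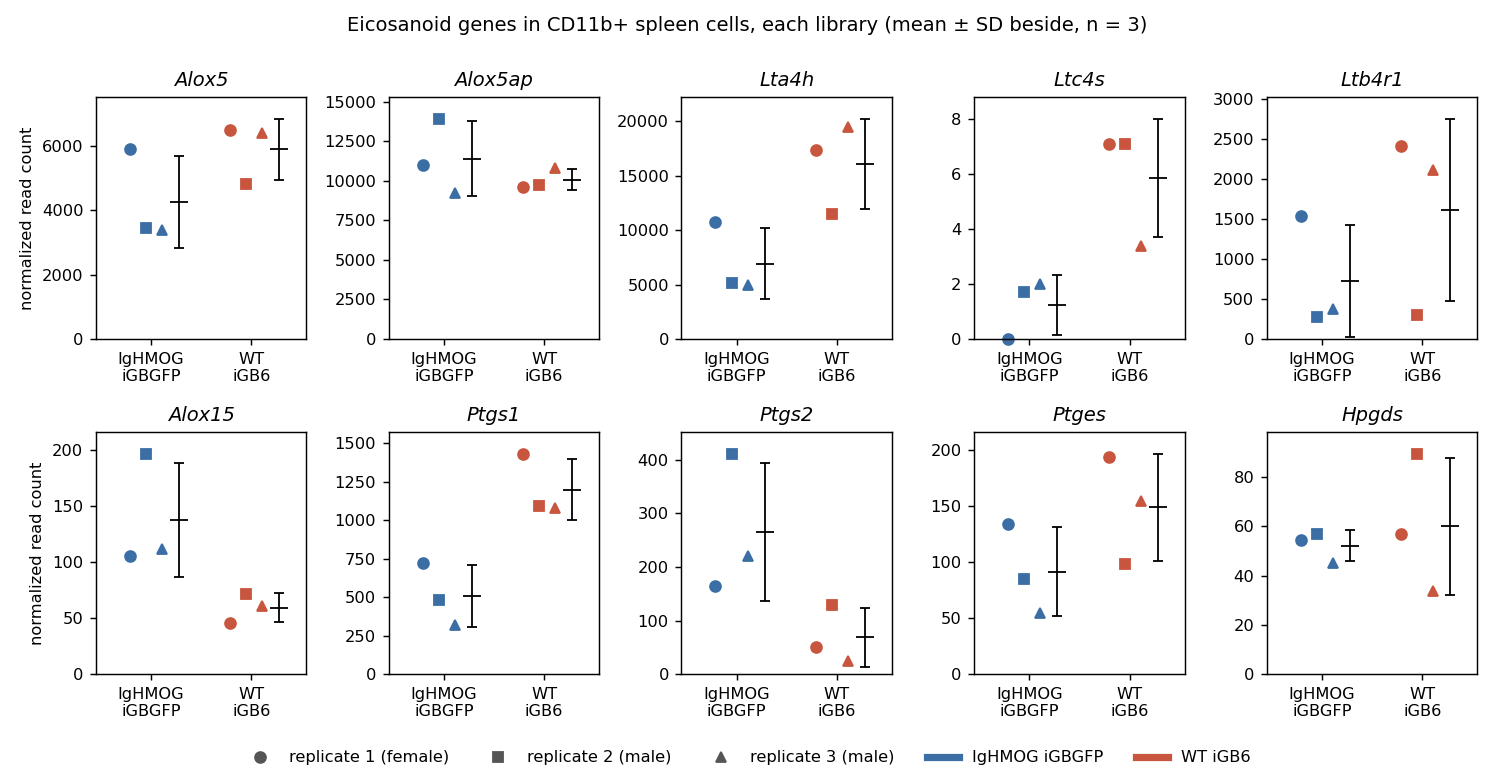
Normalized counts (linear axes from 0, 1 panel a gene) of the 10 members, with 1 point a library, shaped by replicate, and the mean ± SD of the 3 libraries of a group beside them. The points of the groups are separate for Lta4h, Alox15, Ptgs1, Ptgs2 and, at a few reads, Ltc4s, and Ltb4r1 has 1 WT iGB6 library as low as the low IgHMOG iGBGFP libraries.

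Alox5, the 5-lipoxygenase that opens the leukotriene branch (chr6:116410077-116461178, GRCm38), had 5888, 3440 and 3387 normalized counts in IgHMOG iGBGFP replicates 1, 2 and 3 and 6475, 4791 and 6388 in WT iGB6. The groups overlapped, because IgHMOG iGBGFP replicate 1 lay above the lowest WT iGB6 library. The log2 fold change was 0.51 (SE 0.20) and did not pass the test (limma adjusted p = 0.151).

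Alox5ap, which holds arachidonic acid for Alox5 at the nuclear membrane (chr5:149264767-149288153), had 10984, 13929 and 9258 normalized counts in IgHMOG iGBGFP and 9615, 9742 and 10838 in WT iGB6. The values of the groups were interleaved. Its log2 fold change was -0.16 (SE 0.21, 95% interval -0.63 to 0.31, limma adjusted p = 0.689). Part of its exons, 13.3%, is shared with the antisense gene Gm19719, and reads of the 2 strands could not be told apart.

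Lta4h, the hydrolase that makes leukotriene B4 (chr10:93453411-93484875), had 10713, 5147 and 4931 normalized counts in IgHMOG iGBGFP and 17390, 11466 and 19426 in WT iGB6. Every WT iGB6 library was above every IgHMOG iGBGFP library, but the highest of one group and the lowest of the other lay close. The mean rose from 6930 ± 3278 to 16094 ± 4135 (SD over 3 libraries), a log2 fold change of 1.28 (SE 0.26, limma adjusted p = 0.0266). In the authors' deposited table its log2 fold change is 1.20 with an adjusted p of 4.2e-05. The call was lost without IgHMOG iGBGFP replicate 2 (limma adjusted p = 0.18), without replicate 3 of that group (0.122) and without the sex term (0.122), while the log2 fold change stayed between 0.98 and 1.57 under all alternatives run.

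Ltc4s, the synthase of cysteinyl leukotrienes (chr11:50236461-50238616), was near the limit of detection, with 0, 2 and 2 reads in IgHMOG iGBGFP and 6, 9 and 3 in WT iGB6. Those reads are 0, 1.72 and 2.00 against 7.11, 7.10 and 3.37 normalized counts, so every WT iGB6 library was above every IgHMOG iGBGFP library, at a depth where single reads matter. It fell under the filter of a mean of 10 normalized counts and was not tested. Of its exons, 26.4% overlap the antisense gene Gm26542, which had a mean of 0.783 normalized counts.

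Ltb4r1, the high-affinity leukotriene B4 receptor of neutrophils and other leukocytes (chr14:55765962-55768494), had 1534, 278 and 372 normalized counts in IgHMOG iGBGFP and 2411, 303 and 2116 in WT iGB6. It split the libraries into 3 high and 3 low, and both groups had libraries on each side. Its log2 fold change of 1.09 (SE 0.54) did not pass (limma adjusted p = 0.249). Single libraries moved this value in both directions: without WT iGB6 replicate 2 it was 1.83 (limma adjusted p = 0.000247), and without WT iGB6 replicate 3 it was 0.23 (0.585). The summed mature neutrophil markers (11 genes, such as S100a8 and S100a9) were high in the same 3 libraries, at 535995, 504554 and 572007 normalized counts in IgHMOG iGBGFP replicate 1 and WT iGB6 replicates 1 and 3. The other 3 libraries held 244889 to 359997, and the part of these cells in the Ltb4r1 values was not tested. Of these 11 markers, 1 was lower in WT iGB6 and 10 did not pass. Most of the sum came from S100a8, S100a9, Cd177 and Mmp8, and not every marker followed it. Ly6g and Mmp9 were also high in those 3 libraries. Csf3r, Cxcr2 and Il1b instead were, within their groups, lowest in IgHMOG iGBGFP replicate 1 and highest in WT iGB6 replicate 2.

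Alox15, the mouse 12/15-lipoxygenase, which makes hydroxy fatty acids and takes part in lipoxin and resolvin synthesis (chr11:70344152-70352031), had 105, 197 and 112 normalized counts in IgHMOG iGBGFP and 46.2, 71.8 and 60.7 in WT iGB6. All 3 WT iGB6 libraries lay below the lowest IgHMOG iGBGFP library. The mean fell from 138 ± 50.9 to 59.6 ± 12.8 (SD, n = 3 per group), with a log2 fold change of -1.16 (SE 0.26, limma adjusted p = 0.0339). In the authors' deposited table the log2 fold change is -1.06 (adjusted p = 0.00661). The call was lost when IgHMOG iGBGFP replicate 1, 2 or 3 or WT iGB6 replicate 1 was left out, in males alone and without the sex term, at limma adjusted p of 0.0856 to 0.188, and the log2 fold change ran from -1.39 to -0.93 over all alternatives. Of these, the fits without replicate 1 of either group share the log2 fold change of males alone (-1.16), so they are not separate checks.

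Ptgs1, the gene of COX-1 (chr2:36230426-36252272), had 721, 485 and 320 normalized counts in IgHMOG iGBGFP and 1431, 1092 and 1079 in WT iGB6. The lowest WT iGB6 library was above the highest IgHMOG iGBGFP library. The mean rose from 509 ± 202 to 1201 ± 200 (SD, n = 3 per group), a log2 fold change of 1.30 (SE 0.20, limma adjusted p = 0.0113), which was the smallest adjusted p of the members. The call was lost without IgHMOG iGBGFP replicate 2 (limma adjusted p = 0.0875), without its replicate 3 (0.0783) and without the sex term (0.11).

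Ptgs2, the gene of COX-2 (chr1:150100031-150108227), went the other way, with 165, 411 and 220 normalized counts in IgHMOG iGBGFP and 51.0, 130 and 25.9 in WT iGB6. The groups did not overlap, and WT iGB6 replicate 2 was the nearest to the other group. The mean fell from 265 ± 129 to 69.0 ± 54.5 (SD, n = 3 per group), a log2 fold change of -2.12 (SE 0.50, limma adjusted p = 0.0383). This is the member whose call held least well: it was lost in 7 of the alternatives run, among them DESeq2 on the recovered reads (adjusted p = 0.0866) and the fit without IgHMOG iGBGFP replicate 2 (limma adjusted p = 0.235). The other 5 were the fits without IgHMOG iGBGFP replicate 1 or 3, without WT iGB6 replicate 1, in males alone and without the sex term. Those without replicate 1 of either group share the log2 fold change of males alone (-2.34), so they are not separate checks. The log2 fold change was -1.40 without WT iGB6 replicate 3 (limma adjusted p = 0.0125) and -2.71 without WT iGB6 replicate 2 (1.35e-05). In the authors' deposited table its log2 fold change is -1.10 with an adjusted p of 0.0976. DESeq2 on the recovered reads gave -1.92, so the deposited size is not directly comparable with those of the fits here.

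Ptges, the microsomal synthase of prostaglandin E2 (chr2:30889471-30929863), had 134, 85.4 and 55.0 normalized counts in IgHMOG iGBGFP and 193, 98.7 and 154 in WT iGB6. The groups overlapped at WT iGB6 replicate 2, and the log2 fold change of 0.73 (SE 0.26) did not pass (limma adjusted p = 0.119). Hpgds, the haematopoietic synthase of prostaglandin D2 (chr6:65117293-65144908), had 54.2, 56.9 and 45.0 normalized counts in IgHMOG iGBGFP and 56.9, 89.2 and 33.7 in WT iGB6. WT iGB6 held both its highest and its lowest value, and the log2 fold change was 0.10 (SE 0.35, 95% interval -0.68 to 0.88, limma adjusted p = 0.89).

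**Figure D2:**
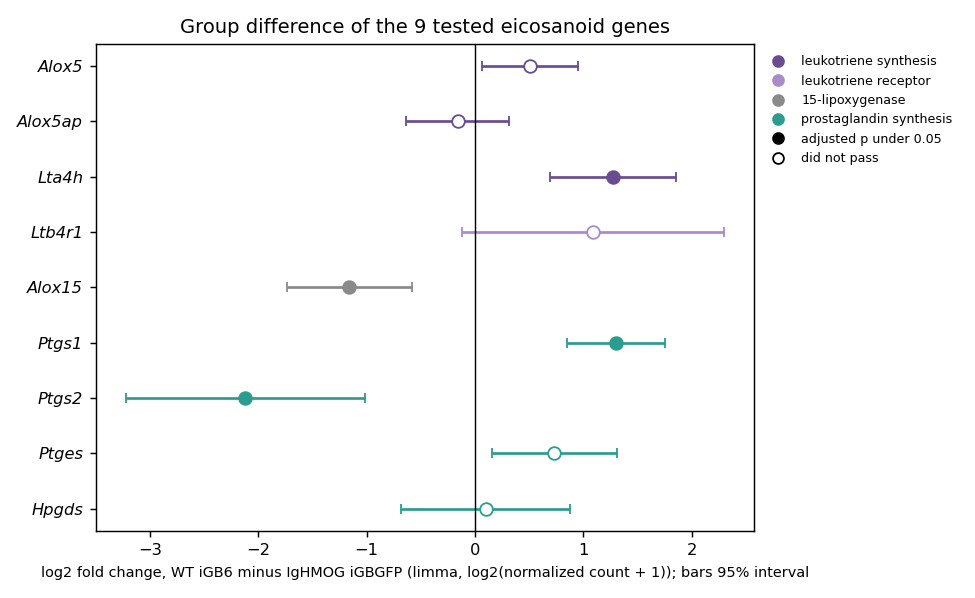
Log2 fold change (WT iGB6 minus IgHMOG iGBGFP) of the 9 tested members, coloured by role, with 95% intervals from limma as bars and filled points for an adjusted p under 0.05. Lta4h (1.28) and Ptgs1 (1.30) lie above 0 and Alox15 (-1.16) and Ptgs2 (-2.12) below 0 and passed the test, while the other 5 did not.

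The 2 libraries nearest to the other group, IgHMOG iGBGFP replicate 1 and WT iGB6 replicate 2, were left out in turn. Leaving out libraries picked for that reason can widen group differences, so the calls below are no independent evidence. These 2 fits called 1.29% and 10.9% of all genes. Without the first, the log2 fold changes of Lta4h (1.57, limma adjusted p = 0.0453) and Ptgs1 (1.46, 0.0384) passed, and those of Alox15 (-1.16, 0.114), Ptgs2 (-2.34, 0.0757), Alox5 (0.70, 0.197) and Ptges (0.84, 0.226) did not. In that fit the sex term takes up the remaining female, WT iGB6 replicate 1, so these log2 fold changes are those of the males alone. Without the second, Lta4h (1.41, limma adjusted p = 0.00269), Ptgs1 (1.25, 0.00113), Alox15 (-1.23, 0.0105), Ptgs2 and Ltb4r1 passed, and Alox5 (0.58, 0.167) and Ptges (0.89, 0.058) did not.

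Whether the group difference of a member itself differed between the sexes was asked with an interaction term. No member passed (0 of 9, smallest unadjusted p = 0.151, limma), nor did any of the 9923 genes, of which 148 had an unadjusted p under 0.05. With 1 female per group this comparison has little power.

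Levels can be compared between genes only per length, so normalized counts were divided by kilobases of merged exon. On that scale Alox5ap was the most abundant member in both groups, at 8022 ± 1663 and 7088 ± 473 (SD over the 3 libraries of IgHMOG iGBGFP and of WT iGB6), above the next member in every library. Lta4h (1136 ± 537) and Alox5 (1032 ± 348) followed in IgHMOG iGBGFP with overlapping values. In WT iGB6, Lta4h at 2637 ± 678 was above Alox5 at 1433 ± 231 in every library. Ltb4r1 came next (522 ± 502 and 1155 ± 819) and then Ptgs1 (131 ± 51.9 and 309 ± 51.4). Below them, the order changed between the groups: Ptgs2 went from rank 6 (57.9 ± 28.2) to rank 8 (15.1 ± 11.9), and Ptges from rank 8 (23.3 ± 10.1) to rank 6 (37.8 ± 12.1), with Alox15 at rank 7 in both (56.2 ± 20.7 and 24.3 ± 5.23). In WT iGB6 the neighbours among these 3 genes overlapped. Hpgds (8.10 ± 0.974 and 9.33 ± 4.33) and Ltc4s (1.22 ± 1.07 and 5.78 ± 2.13) were the lowest.

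Ratios of 2 genes within a library need no scaling between libraries, and 5 were compared by a two-sided exact permutation test, which cannot go below p = 0.1 for 3 against 3 libraries. Their log2 differences were taken after adding 1 to each normalized count. Ptgs2 stood at 0.228, 0.847 and 0.687 of Ptgs1 in IgHMOG iGBGFP and at 0.0356, 0.119 and 0.0240 in WT iGB6. The cyclooxygenase ratio was thus lower in all 3 WT iGB6 libraries than in any IgHMOG iGBGFP library, by 3.42 on the log2 scale (the difference was -3.42, exact p = 0.1, 0.167 after Benjamini-Hochberg adjustment over the 5 ratios). With 1 library left out it ran from -4.09 (without WT iGB6 replicate 2) to -2.95 (without WT iGB6 replicate 3).

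The ratio of Alox5 to Ptgs2 was 35.8, 8.38 and 15.4 in IgHMOG iGBGFP and 127, 36.8 and 247 in WT iGB6. These values nearly touch, since the lowest WT iGB6 ratio was just above the highest of the other group, and the log2 difference was 2.63 (exact p = 0.1, adjusted 0.167), or 3.38 without WT iGB6 replicate 2 and 2.02 without WT iGB6 replicate 3. The ratio of Alox5 to Alox15 was 55.9, 17.5 and 30.2 in IgHMOG iGBGFP and 140, 66.7 and 105 in WT iGB6, with a log2 difference of 1.67 (exact p = 0.1, adjusted 0.167). Its groups did not overlap either, and with 1 library left out the difference was 1.26 to 2.10. Ptges to Hpgds, the balance of the terminal prostaglandin E2 and D2 synthases, overlapped between the groups, with a log2 difference of 0.63 (exact p = 0.4, adjusted 0.5) that was 1.24 without WT iGB6 replicate 2 and 0.23 without WT iGB6 replicate 3. Ltc4s to Lta4h, the ratio of the enzymes that compete for leukotriene A4, overlapped too (0.44, exact p = 0.7, adjusted 0.7) and rests on few Ltc4s reads.

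**Figure D3:**
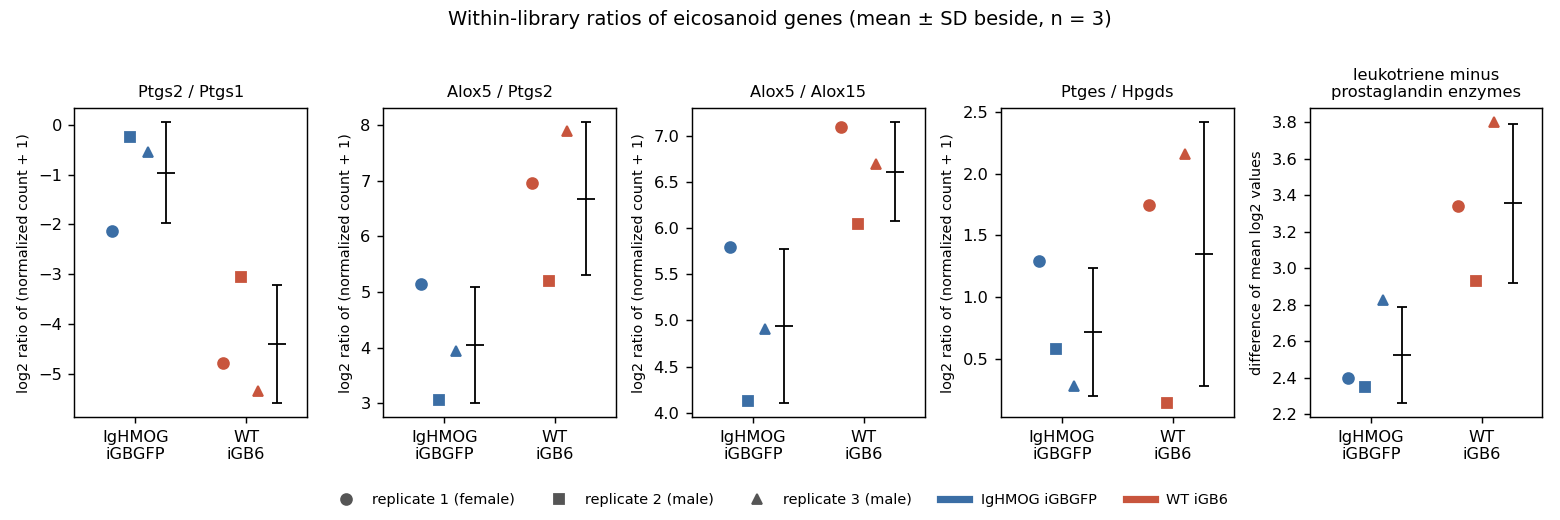
Log2 ratios of (normalized count + 1) for 4 gene pairs, and the difference of the mean log2 values of leukotriene and prostaglandin enzymes, with 1 point a library and the mean ± SD of 3 libraries beside. Ptgs2 to Ptgs1 is lower, and Alox5 to Ptgs2 and Alox5 to Alox15 are higher, in all WT iGB6 libraries than in the IgHMOG iGBGFP libraries, and the exact p cannot go below 0.1.

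As a description of the branches, the mean log2(normalized count + 1) of Alox5, Alox5ap, Lta4h and Ltc4s was 9.78 in IgHMOG iGBGFP and 10.62 in WT iGB6. That of Ptgs1, Ptgs2, Ptges and Hpgds was 7.26 in both, with Ptgs1 up and Ptgs2 down. The leukotriene mean minus the prostaglandin mean was 2.40, 2.35 and 2.83 in IgHMOG iGBGFP and 3.34, 2.93 and 3.80 in WT iGB6, without overlap and with a difference of 0.83. Ltc4s, with at most 9 reads, carried part of it: without Ltc4s, an alternative added after the data were seen, the difference was 0.54 and the groups overlapped.

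For each called member, the genes with the most similar profile over the 6 libraries were found among 5219 genes with a mean of at least 100 normalized counts, by the root mean square difference of centred log2 values. Lta4h was closest to Chil3 (0.07), a chitinase-like protein of neutrophils and macrophages, then Serpinb1a (0.10), an inhibitor of neutrophil proteases, and Gca (0.11). Ptgs2 was closest to Dusp1 (0.11), an immediate early phosphatase, then Stfa2l1 (0.14) and Clec4d (0.17). Ptgs1 was closest to Pafah2 (0.06), an acetylhydrolase of oxidised phospholipids, then Dsn1 and Cdca7 (0.13 each). Alox15 was closest to Pip4k2a (0.10) and Peli1 (0.11).

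Around these members, 82 other genes of eicosanoid metabolism were in the table and 48 were tested. Of these, 1 was higher in WT iGB6, 3 were lower and 44 did not pass, so that 8.33% were called against 6.12% of all genes tested, and their median log2 fold change was -0.04. The groups did not overlap for 10 of the 48, or 20.8%, against 23.6% of all genes. The wider pathway was therefore called at a share near that of the whole table.

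Among the prostaglandin and thromboxane genes, 16 were tested, of which 1 was higher and 1 was lower. Hpgd, the dehydrogenase that starts prostaglandin breakdown, fell from a mean of 158 ± 71.3 to 57.1 ± 38.8 (SD over 3 libraries), by a log2 fold change of -1.52 (SE 0.38, limma adjusted p = 0.044), and its groups overlapped. Ptgr1, a reductase of oxidised prostaglandins that also inactivates leukotriene B4, rose from 183 ± 59.6 to 360 ± 59.1 (1.01, SE 0.19, limma adjusted p = 0.0187). The related reductase Ptgr2 (0.37), the thromboxane synthase Tbxas1 (-0.40), the prostacyclin receptor Ptgir (0.26), the prostaglandin exporter Abcc4 (0.72) and the prostaglandin E receptor Ptger1 (-0.53) did not pass (limma adjusted p = 0.108 to 0.362).

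None of the 12 other leukotriene and lipoxygenase genes tested passed. Cyp4f18, which inactivates leukotriene B4 in mouse neutrophils, was at 6215 ± 1886 and 3104 ± 1192 normalized counts without overlap of the groups (log2 fold change -1.05, SE 0.32, limma adjusted p = 0.0784). Dpep2, a dipeptidase that turns leukotriene D4 into E4, was at 167 ± 101 and 343 ± 168 (1.20, SE 0.32, limma adjusted p = 0.0547). Ggt5, which turns leukotriene C4 into D4, was at 279 ± 22.7 and 166 ± 44.9 (-0.78, SE 0.23, limma adjusted p = 0.0709). In the authors' deposited table Dpep2 (adjusted p = 0.00751) and Cyp4f18 (0.0162) pass the threshold and Ggt5 (0.0652) does not.

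Among 17 tested genes of arachidonic acid release and reacylation, 1 was lower. Faah, the hydrolase of anandamide and related fatty acid amides, had 19.4, 40.5 and 25.0 normalized counts in IgHMOG iGBGFP and 0, 1.58 and 4.50 in WT iGB6, the latter at or near the level of 3 reads (log2 fold change -3.53, SE 0.55, limma adjusted p = 0.0113). The cytosolic phospholipase Pla2g4a, the main source of arachidonic acid for both branches, was at 442 ± 91.9 and 674 ± 87.8 normalized counts, and its groups did not overlap (0.62, SE 0.20, limma adjusted p = 0.0954). Anxa1, an abundant phospholipase-binding protein and ligand of Fpr2, was at 37932 ± 12147 and 64320 ± 26487 (0.72, limma adjusted p = 0.225). Of 3 tested receptors and epoxide hydrolases, Gpr18, a reported resolvin receptor, fell from 199 ± 87.9 to 58.2 ± 25.8 (-1.74, SE 0.37, limma adjusted p = 0.0293), while Fpr2 (0.42) and Ephx1 (-0.50) did not pass.

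**Figure D4:**
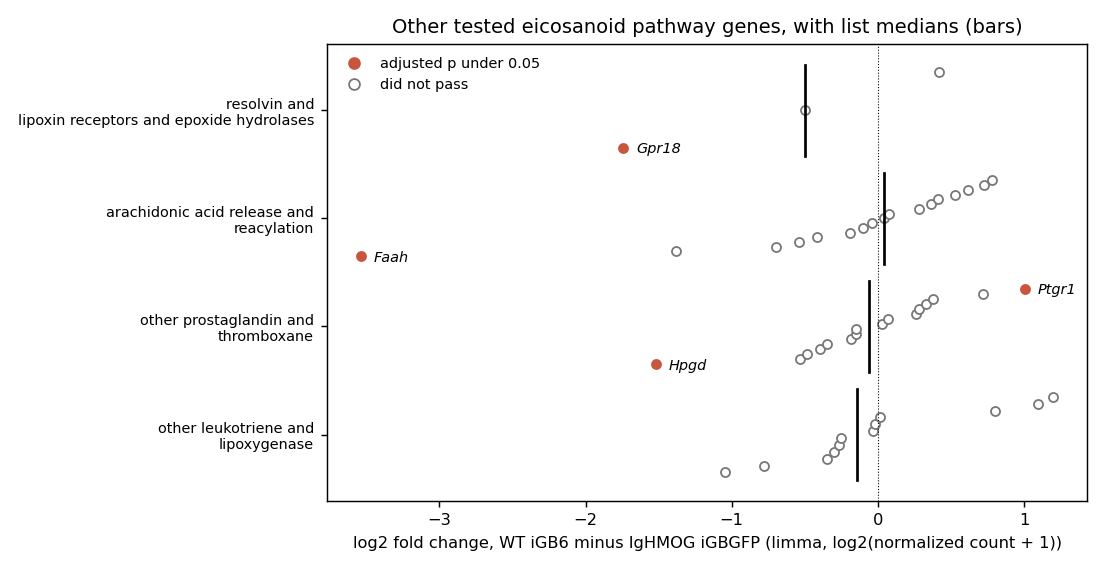
Log2 fold change (WT iGB6 minus IgHMOG iGBGFP) of the 48 tested genes of the 4 other eicosanoid lists, 1 point a gene, with vertical bars at the list medians and the genes that passed filled and named. Ptgr1 lies above 0 and Hpgd, Gpr18 and Faah below, and the rest spread around 0.

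Markers of cell types that make eicosanoids were counted in the same fit, and the range of their summed level was taken in each group. The sums overlapped between the groups for each cell type below. Neutrophil precursor markers (7 of 11 higher in WT iGB6) summed to 441916 to 1228795 normalized counts in IgHMOG iGBGFP and 968252 to 1612257 in WT iGB6, and their sums were lowest in the 2 IgHMOG iGBGFP libraries where Lta4h and Ptgs1 were lowest. Most of that sum came from Ngp, Ltf, Camp and Chil3, which did not pass (limma adjusted p = 0.054 to 0.266), while the 7 called genes, such as Mpo and Elane, added little to it. Dendritic cell markers (8 of 9 lower) summed to 8959 to 33252 and 4053 to 10030, and non-classical monocyte markers (4 of 8 lower) to 4970 to 8105 and 2810 to 5027. Basophil and mast cell markers (6 of 10 lower) summed to 11081 to 22455 and 12080 to 13200, a sum held largely by Hdc, which did not pass. Genes known to be induced by cell isolation, among them Fos and Dusp1 (10 of 16 lower), summed to 37892 to 59519 in IgHMOG iGBGFP and 16314 to 29665 in WT iGB6. Like Ptgs2, that sum was highest in IgHMOG iGBGFP replicate 2 and, within WT iGB6, in replicate 2. Eosinophil markers (0 of 4 called) summed to 572 to 646 and 580 to 731, and macrophage markers (1 of 13 higher) to 9331 to 12101 and 6633 to 14403. Of these lists, the isolation genes alone had a member at 0 in every library, Hspb1. The part of any of these cells or genes in the values of Lta4h, Ptgs1, Ptgs2 and Alox15 was not tested.

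**Figure D5:**
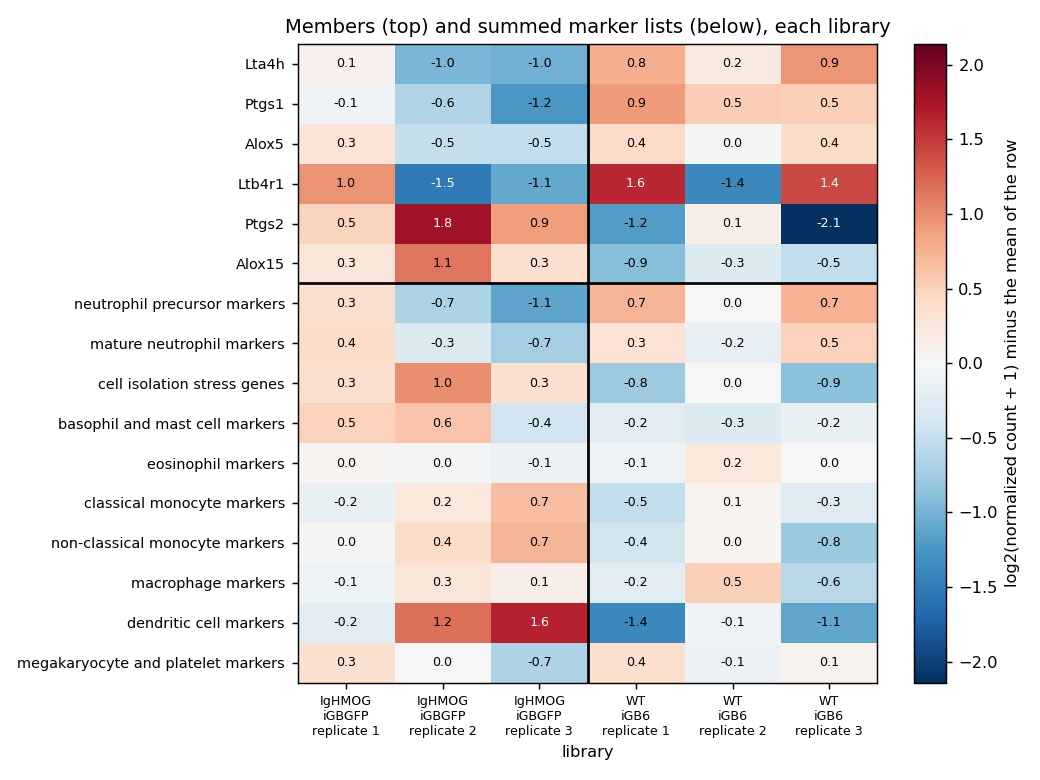
Each cell is log2(normalized count + 1) of a member, or of a summed marker list, in 1 library, minus the mean of its row, for 6 libraries. Ltb4r1 and the summed mature neutrophil markers (mostly S100a8, S100a9, Cd177 and Mmp8) are above their mean in the same 3 libraries. Csf3r, Cxcr2 and Il1b of that list did not follow the sum. Ptgs2 and the summed isolation genes are highest in IgHMOG iGBGFP replicate 2.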

How the data were processed

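Bulk RNA-seq of 6 libraries, 3 per group, was used. Per the labels' protocols, cDNA was amplified for 17 cycles and libraries for 9, and no molecular identifiers are described, so the limit of 3 reads covers less than the full error. The submitters' processing notes list STAR 2.7.10b, featureCounts 2.0.3 and the build GRCm38 among others, with no strand setting. In the deposited signal table each value is a normalized count: the authors divided counts by 1 factor per library, and whole reads came back for 100% of values within 0.001. The deposited table of the authors' DESeq2 comparison gives each gene a Wald score, its p-value (raw and adjusted) and a log2 fold change, with 862 (8.18%) of 10537 adjusted values under 0.05, and its columns were identified from the values. Its fold changes can be smaller than those of DESeq2 on the recovered reads (for Ptgs2 -1.10 against -1.92).

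Genes were matched to GENCODE M21 by identifier (42548 of 43432). Tests used limma 3.58.1 in R 4.3.3 (lmFit, eBayes with trend) on log2(normalized count + 1), keeping the 9923 genes whose mean reached 10; the model held sex and group, and two-sided p-values were adjusted by Benjamini-Hochberg at 0.05. Because the deposited values are not raw counts, the recovered reads were also tested with DESeq2 1.42.0 and edgeR 4.0.16. Sex coincides with replicate number 1, so the sex term also takes up whatever else those libraries share. The scripts were tested on simulated data. The members, gene lists and tests were chosen with earlier results of these data known. Named genes were all members, from each pathway list the 6 with the smallest p and the 2 most abundant per kilobase (a part of which is given), the 2 most abundant of each marker list (likewise) and the 3 most similar genes for each called member, of which 1 is not reported here. Prxl2b was matched by its older symbol Fam213b. Marker lists not named in the report were classical monocyte (3 of 7 lower), megakaryocyte (1 higher and 1 lower of 6), erythroid (0 of 6), T cell (1 of 3 lower), B cell (0 of 3), natural killer cell (0 of 5) and stromal (0 of 2).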

Additional observations from a re-analysis of the deposited data

How the results depend on the processing

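Of all genes tested, limma called 607, 606 were called by edgeR and 602 with TMM scaling, which shifted the median log2 fold change by -0.03. The number was 1079 without the filter, 951 with DESeq2, 134 in males alone and 10 without the sex term, and 4 to 1083 with 1 replicate left out (4 without IgHMOG iGBGFP replicate 2, 1083 without WT iGB6 replicate 2). Members called numbered 2 in males alone, 0 without the sex term and 0 to 5 with 1 replicate left out. The wider pathway, with 4 called, had 11 without the filter, 7 with DESeq2, 2 in males alone, 0 without the sex term and 0 to 10 with 1 replicate left out. No called member reversed its direction. Alox5ap, which ran from -0.33 to 0.0036 (the latter without IgHMOG iGBGFP replicate 2), and Hpgds, from -0.30 (without WT iGB6 replicate 2) to 0.49, neither of them called, did. The Ltc4s to Lta4h ratio turned to -0.48 with a pseudocount of 5 and to -0.51 in males alone, and ran from -0.43 to 0.92 with 1 replicate left out. The cause was not tested in any of these, beyond the loss of samples or genes that the setting itself brings.

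Replicate numbers are shared by the groups. Deviations from the group means correlated at 0.48, 0.35 and 0.04 between libraries of the same number. IgHMOG iGBGFP replicates 1 and 2 correlated best with the WT iGB6 library of their own number, and replicate 3 with WT iGB6 replicate 2 (0.29). These values do not settle whether the numbers pair the mice, and the main fit did not pair them. With the number as a replicate block, 1001 genes (10.1%), 8 pathway genes and the same 4 members were called.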

Other observations

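Alox8, a mouse lipoxygenase that makes hydroxy fatty acids, fell under the filter on low values and was singled out after its values were seen. It had 9, 36 and 10 reads in IgHMOG iGBGFP and 1, 2 and 2 reads in WT iGB6, at means of 16.7 ± 12.4 and 1.67 ± 0.538 normalized counts (SD, n = 3). Like Alox15, it was lower in all 3 WT iGB6 libraries. Without the filter its log2 fold change was -2.54 (limma adjusted p = 0.0123), and in the authors' deposited table it is -1.48 (adjusted p = 0.0144).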
